A study of Mus musculus with 5 samples.

Results

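The Ly6 genes described here encode small lymphocyte antigen 6 proteins of the mouse cell surface. The members were chosen by symbol (Ly6a, Ly6c1, Ly6c2, Ly6d, Ly6e and Ly6g), and every transcript row with one of these symbols was taken, which gave 9 of the 26531 transcript rows in the table. Of the 6 symbols, 5 matched a row, with 5 rows for Ly6e and 1 row each for Ly6a, Ly6c1, Ly6c2 and Ly6d. Ly6g was not analysed here. The rule used no measured value.

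RNA was measured in 5 libraries of bone marrow cells from C57BL/6 mice aged 6 to 7 weeks, sorted as Hardy fraction A without removing other lineages. Hardy fraction A is the earliest fraction of the B lineage in a sorting scheme based on surface markers, and the labels call the cells proB cells. The groups were wt (2 libraries, wild type), dF1 (2 libraries, Ikaros_ZnF1-/-, a mutant of zinc finger 1) and dF4 (1 library, Ikaros_ZnF4-/-, a mutant of zinc finger 4, described as having low coverage). Ikaros binds DNA through its zinc fingers and is needed to form lymphocytes, and all groups share strain, tissue and sort. The submitters describe the pair of dF1 libraries as biological replicates. Whether separate mice gave the wt libraries is not stated. Each p-value here therefore measures only the spread between these samples, and in wt that spread may be technical. In bulk RNA of this kind, fewer cells of a type and less RNA per cell cannot be told apart.

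Ly6 proteins are built on a compact cysteine-rich fold, the LU domain, and most are held in the outer leaflet of the membrane by a glycosylphosphatidylinositol (GPI) anchor. Ly6a encodes Sca-1, the antigen used to isolate blood stem cells, which lymphocytes and endothelial cells also carry and interferons induce. Ly6c1 and Ly6c2 encode the copies of the Ly6C antigen of monocytes, plasmacytoid dendritic cells and some lymphocytes. Ly6d marks lymphoid progenitors biased toward the B lineage, Ly6e is a broadly expressed and interferon-inducible member, and Ly6g is the neutrophil antigen recognised in the Gr-1 stain.

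Markers of cells other than proB cells were present in every library, and the dF4 library stood apart from the other 4. RPKM, used for every level below, is the number of reads divided by transcript length and by library size. Transcripts of early B lineage markers were present, with a sum over 12 genes of 343.8 to 537.1 RPKM in the wt and dF1 libraries and 1510 in dF4. Summed over 14 markers of plasmacytoid dendritic cells (pDCs), wt gave 4764 and 5407 RPKM, dF1 gave 4603 and 5089, and dF4 gave 622.2. Summed over 16 neutrophil markers wt gave 413.7 and 1108, dF1 gave 222.9 and 875.2, and dF4 gave 34200. The dF4 library held about 597000 reads, estimated from the steps in its low values, and the depth of the other libraries is unknown. The intervals printed for dF4 are exact 95% Poisson intervals on the estimated reads and cover counting error only.

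The sequences of Ly6c1 and Ly6c2 are shown because these copies differ greatly in level below while their coding sequences are nearly the same. The coding sequences come from the GENCODE M21 transcripts (build GRCm38) that correspond to NM_010741 and NM_001099217, without the stop codon, and bases that differ between the copies are in capitals. Each is 393 bases long and 9 bases differ, with an identical run of 188 bases. Bases 1 to 300, which hold 7 of the differences, are shown.
Ly6c1: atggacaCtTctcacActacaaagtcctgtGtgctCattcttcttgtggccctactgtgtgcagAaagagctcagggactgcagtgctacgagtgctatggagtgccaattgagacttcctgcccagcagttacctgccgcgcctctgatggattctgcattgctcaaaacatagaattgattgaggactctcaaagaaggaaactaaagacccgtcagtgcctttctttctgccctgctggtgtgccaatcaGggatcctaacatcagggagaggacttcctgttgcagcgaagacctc
Ly6c2: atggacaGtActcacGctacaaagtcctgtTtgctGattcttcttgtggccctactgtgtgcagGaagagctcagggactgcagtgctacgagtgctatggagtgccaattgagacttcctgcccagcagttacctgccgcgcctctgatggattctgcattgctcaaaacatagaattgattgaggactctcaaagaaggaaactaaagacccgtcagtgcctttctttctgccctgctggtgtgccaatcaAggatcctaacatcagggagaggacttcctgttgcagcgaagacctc

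Coding sequence identity was 97.7% between Ly6c1 and Ly6c2, 81.8% between Ly6a and Ly6c1, 81.6% between Ly6a and Ly6c2, and 47.4% to 52.3% for each pairing of Ly6d or Ly6e with Ly6a. Over whole transcripts, 33% of the 50-base windows of Ly6c2 and 36.7% of those of Ly6c1 also occurred in a transcript of another gene. The share was 10% for Ly6a. It was 0% for Ly6d and for every Ly6e transcript matched, so the Ly6d and Ly6e values share no such window with another annotated gene. In the sources used here, the treatment of reads that match several genes is not given. The Ly6c1, Ly6c2 and Ly6a levels carry that uncertainty.

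The RefSeq promoter table matched 3 of the 6 members, Ly6c1, Ly6c2 and Ly6g. The promoters of the Ly6c copies, from 250 bases before to 50 bases after the start site, are shown because the transcripts differ in level and the promoters differ more than the coding sequences. They lie on the minus strand of GRCm38.p6 at chr15:75048788-75049087 (Ly6c1) and chr15:75111922-75112221 (Ly6c2), and RefSeq lists a further start for each gene. Capitals mark matches to the Ikaros core motif TGGGAA and to the E box CAGNTG, read on both strands.
Ly6c1: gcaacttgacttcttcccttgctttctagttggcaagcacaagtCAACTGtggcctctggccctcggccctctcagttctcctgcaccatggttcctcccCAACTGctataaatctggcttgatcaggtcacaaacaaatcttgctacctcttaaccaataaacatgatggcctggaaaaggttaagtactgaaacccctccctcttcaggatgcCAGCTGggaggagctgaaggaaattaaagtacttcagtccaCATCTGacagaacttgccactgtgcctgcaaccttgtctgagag
Ly6c2: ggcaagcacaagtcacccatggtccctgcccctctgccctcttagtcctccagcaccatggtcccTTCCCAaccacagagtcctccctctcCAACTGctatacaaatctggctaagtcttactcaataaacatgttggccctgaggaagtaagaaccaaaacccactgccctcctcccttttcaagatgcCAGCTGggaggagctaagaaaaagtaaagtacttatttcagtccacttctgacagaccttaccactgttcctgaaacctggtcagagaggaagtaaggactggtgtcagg

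The alignment of these promoters had 334 columns, of which 208 (62.3%) were identical. Gaps count as differences here and in the coding identities above. The Ly6c2 promoter held 1 match to TGGGAA, on the strand opposite to transcription at positions -185 to -180, counting the start site base as 0. The Ly6c1 promoter held none. Of 32851 mouse promoters of the same length, 25.6% hold this motif. Both hold the E box, as do 51.4% of promoters. Neither held the interferon response element core (GAAA, any 2 bases, GAAA), found in 3.44% of promoters, or the STAT element TTCNNNGAA, found in 8.3%. Neither held the EBF core (TCCC, any 2 bases, GGGA), found in 0.904%, whose TCCC also occurs in TTCCCA, the reversed Ikaros core. These matches are a description of the letters only.

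Among the members, Ly6d and Ly6e were the most abundant transcripts, Ly6a and Ly6c2 lay about an order of magnitude lower, and Ly6c1 was near 0. Because RPKM is per length, levels can be ordered between genes. Counted from the most abundant transcript, Ly6d had rank 14 and rank 7 in the wt libraries, and the main Ly6e row (NM_001164036) had rank 13 in both. In wt replicate 1 Ly6e exceeded Ly6d (935 and 913.1 RPKM) and in wt replicate 2 Ly6d exceeded Ly6e (1179 and 876.3 RPKM), so their order in wt is not beyond the spread of the libraries. In the dF1 and dF4 libraries Ly6e was above Ly6d in each case. Together the 9 rows held 0.699% and 0.797% of the summed RPKM for wt, 0.531% and 0.487% for dF1 and 0.301% for dF4.

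**Figure D1:**
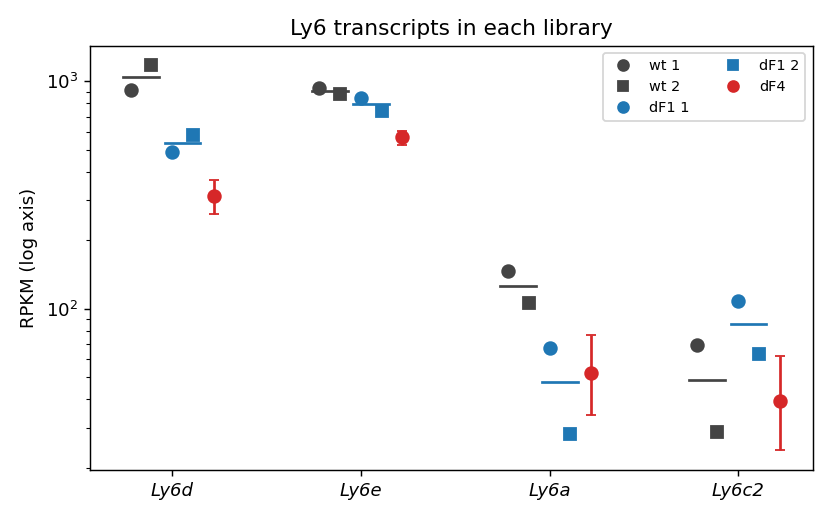
RPKM on a log axis for Ly6d, the main Ly6e row, Ly6a and Ly6c2 in each of the 5 libraries, with the group mean as a line for wt and dF1 and the 95% Poisson interval as a bar for dF4. The dF1 points lie below the wt points for Ly6d, Ly6e and Ly6a and interleave with them for Ly6c2.

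The comparison of dF1 with wt asked how loss of zinc finger 1 affects the transcripts of fraction A cells. The wt libraries held 913.1 and 1179 RPKM of Ly6d, and the dF1 libraries held 488.3 and 580.7. Both dF1 libraries lay below both wt libraries, as they did for 17.9% of all transcripts tested, and the spread within each group was smaller than the gap. The means were 1046 ± 188 RPKM (SD, n = 2) in wt and 534.5 ± 65.3 (SD, n = 2) in dF1, a 1.96-fold lower mean in dF1. On log2(RPKM + 1), the scale of all differences below, dF1 minus wt was -0.96 (SE 0.22). It did not pass limma's test after adjustment over all 12213 transcripts (adjusted p = 0.453). Only 0.852% of tested transcripts had a more negative difference. The difference lay between -1.15 and -0.78 when any 1 library was left out. The pDC marker sum overlapped between wt and dF1, as did the early B lineage sum over 12 markers (wt 537.1 and 343.8 RPKM, dF1 401.7 and 408.1). Of the 14 pDC markers, 5 had both dF1 libraries below both wt libraries and 2 had both above. Of the 12 early B lineage markers, 2 lay below and 2 above, beside 17.9% and 16.9% of all transcripts tested. The part of pDCs or early B lineage cells in the Ly6d difference was not tested.

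Ly6a, encoding Sca-1, gave 146.1 and 105.5 RPKM in the wt libraries, against 67.2 and 28.1 in dF1. The groups did not overlap, but the dF1 libraries were 1.23 apart on the log2 scale (replicate 2 minus replicate 1, -1.23), with dF1 replicate 2 the lowest of the 5 libraries. The means were 125.8 ± 28.7 RPKM (SD, n = 2) in wt and 47.6 ± 27.6 (SD, n = 2) in dF1, a 2.64-fold lower mean in dF1. The log2 difference was -1.49 (SE 0.43, limma adjusted p = 0.586). It was -0.88 without dF1 replicate 2 and -2.10 without dF1 replicate 1, so its size depends on which dF1 library is used. Of all tested transcripts 0.164% had a more negative difference.

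Stem cells and endothelial cells are known to carry Sca-1, and their markers were measured in the same libraries. Of 12 stem and multipotent progenitor markers, the summed level was 22 and 22.9 RPKM (wt) against 16.5 and 19.5 (dF1). Of the 7 tested, 5 had a negative difference and 0 passed the adjustment. Of these 7, Gata2, Gfi1b and Tal1 reached the filter through dF4 alone. They were at 0.8 RPKM or below in the wt and dF1 libraries, so their differences there carry little information. Kit, a growth factor receptor, gave 9.9 and 5.8 RPKM (wt) against 3.7 and 4.7 (dF1), and Cd34, a surface sialomucin, gave 1.7 and 2.1 against 4.7 and 5.4. Slamf1 and Mecom were at 0.1 RPKM or below in these 4 libraries. Over 9 endothelial markers the wt libraries summed to 142.9 and 138.9 RPKM and the dF1 libraries to 153.9 and 161. Pecam1 and Cdh5 gave most of the sum and lay on opposite sides of wt in dF1 (-0.50 and 0.72, limma adjusted p = 0.474 and 0.487), and Tek and Esam were listed at 0 in every library. The interferon response list, whose genes respond to the same cytokines as Ly6a, had 25 of 27 members with a positive difference, beside 48.3% of all tested transcripts with a negative one. Its median difference was 0.48, beside 0.00725 over all transcripts tested, and 0 of its members passed the adjustment (lowest adjusted p = 0.376). The 2 members with a negative difference were Mx2 and Stat2, with differences of -0.03 and -0.06. The summed level of the list was 434.2 and 479.2 RPKM (wt) against 683.3 and 500 (dF1). The part of stem cells, endothelial cells or the interferon response in the Ly6a difference was not tested.

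Ly6c2 gave 69 and 28.6 RPKM in the wt libraries, against 108.2 and 63.4 in dF1. The groups overlapped, since dF1 replicate 2 lay below wt replicate 1. The log2 difference was 0.88 (SE 0.47, limma adjusted p = 0.768), and it was 0.26 without wt replicate 2 and 1.502 without wt replicate 1. The summed level of 12 NK cell markers moved with these libraries, at 2167 and 964.1 RPKM (wt) against 2432 and 2162 (dF1), with wt replicate 2 the low library here too. None of the 12 NK markers was at 0. Among the wt and dF1 libraries, wt replicate 2 also had the lowest monocyte sum (184.2 and 116.1 RPKM for wt, 177.1 and 213.2 for dF1). The same held for the early B lineage, early lymphoid progenitor, mature B and plasma, T cell and endothelial sums. That library was not the lowest for the neutrophil, pDC, conventional dendritic cell, stem and progenitor, erythroid or interferon sums. The part of any of these cells in the Ly6c2 difference was not tested. Ly6c1 was nearly undetected, with 0.2 and 0.1 RPKM for wt, 0.8 and 0.1 for dF1 and a listed 0 for dF4. With a mean of 0.24 RPKM it did not reach the filter of 1 RPKM and was not tested. With the limit for a count of 0 set at 3 reads, dF4 could have held up to 5.94 RPKM of Ly6c1.

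The order of Ly6a and Ly6c2 was the reverse in dF1 of what it was in wt. Ly6a divided by Ly6c2 was 2.12 and 3.69 for the wt libraries, 0.621 and 0.443 for dF1 and 1.34 for dF4. The ratio is given as a description, with no test.

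The Ly6e levels of wt and dF1 lay close together. Its main row gave 935 and 876.3 RPKM in the wt libraries, against 849.4 and 742.7 in dF1. Both dF1 libraries lay below both wt libraries, by a gap smaller than the spread within dF1. The log2 difference was -0.19 (SE 0.19, limma adjusted p = 0.867). The second most abundant row, NM_001164039, gave 68.8 and 68.2 RPKM (wt) against 69.1 and 74.8 (dF1), with no larger difference (0.07, SE 0.11, adjusted p = 0.917). For both Ly6e rows the 5 libraries stayed within a narrow range compared with Ly6a or Ly6c2.

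Of the minor Ly6e rows, NM_001164037 and NM_001164038 differed between replicates more than between wt and dF1. NM_001164038 gave 1.1 and 9.6 RPKM (wt), 0.7 and 3.6 (dF1) and 5.8 (dF4). NM_001164037 gave 3.2 and 11.7 RPKM (wt), 2.6 and 5.2 (dF1) and 5.5 (dF4). In each row replicate 2 was above replicate 1 in both genotypes. The neutrophil, pDC, erythroid, and stem and progenitor marker sums also rose in both, and the other cell type sums did not. In dF4, where the neutrophil sum was 34200 RPKM, each row lay between its wt values. The part of any of these cells in the 2 rows was not tested. NM_001164040 gave 2.1 and 2.2 RPKM (wt), 1.9 and 1.6 (dF1) and a listed 0 (dF4), so its dF1 libraries lay below both wt libraries. These levels are not independent isoform abundances. Of the 50-base windows in the GENCODE transcript matched to NM_001164037, 96.8% also occur in that matched to NM_001164036. NM_001164038 and NM_001164039 match the same GENCODE transcript, and NM_001164040 matches the same one as the main row NM_001164036. The sharing of reads among such rows is not stated either. The main row held 89.1% to 92.6% of the summed Ly6e RPKM in each library.

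**Figure D2:**
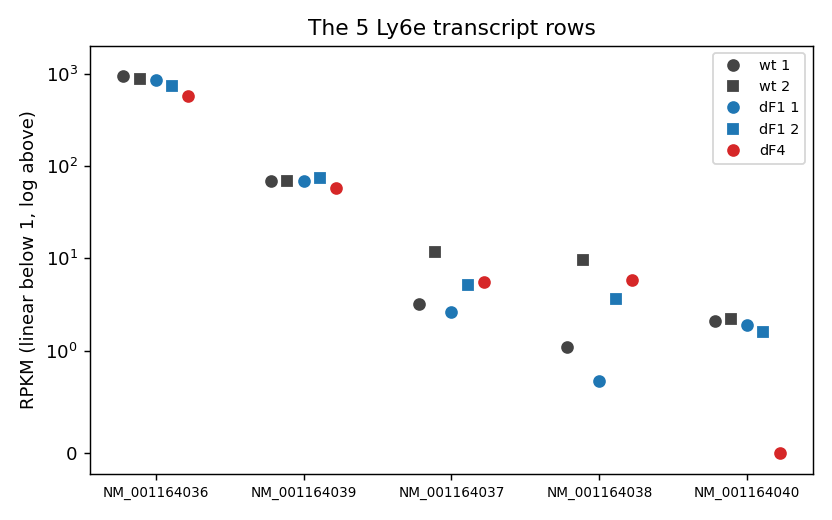
RPKM of the 5 Ly6e transcript rows in each library, on an axis that is linear below 1 and logarithmic above. The main row lies between 566.9 and 935 in every library, while NM_001164037 and NM_001164038 are higher in replicate 2 than in replicate 1 of wt and of dF1.

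Over the family, limma tested 8 of the 9 rows, and 0 passed the adjustment, as 0 of 12213 transcripts did (0% called). At an unadjusted p under 0.05, Ly6d and Ly6a were lower in dF1, where 4.05% of all tested transcripts were, and no member was higher (3.11% of all). Both dF1 libraries lay below both wt libraries for 4 of the 8 rows (Ly6d, Ly6a and 2 rows of Ly6e), beside 17.9% of all tested transcripts. They lay above for 1 row of Ly6e (NM_001164039), beside 16.9%. The Ly6e rows share sequence, so they are not separate observations. With 1 row per gene the median difference of the 4 genes tested was -0.57, beside 0.00725 over all transcripts tested.

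**Figure D3:**
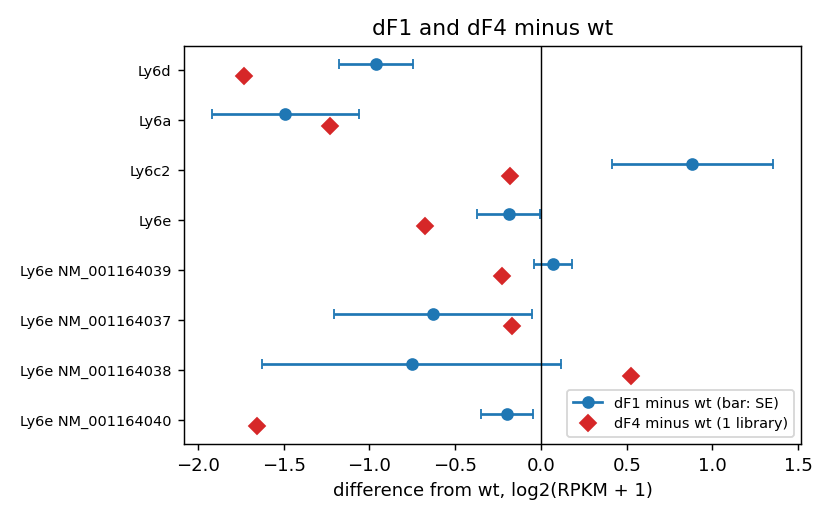
Difference from the wt mean on log2(RPKM + 1) for the 8 tested Ly6 rows, as circles with the limma SE for dF1 and as diamonds for the single dF4 library. Ly6d and Ly6a lie below 0 in both mutants, and Ly6c2 lies at 0.88 in dF1 and -0.18 in dF4.

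The comparison of dF4 with wt rests on 1 library and has no test. Ly6d was at 311.8 RPKM in dF4 (95% Poisson interval 259.9 to 369.9, about 129 reads), below every other library and 3.36-fold below the wt mean. Ly6e (NM_001164036) was at 566.9 RPKM (527.4 to 608, about 773 reads), also the lowest of the 5 libraries, and 1.6-fold below the wt mean. Both intervals exclude the lowest wt and dF1 values. Ly6a was at 52.4 RPKM (34.2 to 76.7, about 26 reads), below both wt libraries and between the dF1 libraries. Ly6c2 was at 39.2 RPKM (23.8 to 61.7, about 19 reads), between the wt libraries.

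A transcript was counted by size where dF4 lay outside both wt libraries and differed from the wt mean by at least 1 on the log2 scale. By this rule Ly6d (-1.73), Ly6a (-1.23) and the Ly6e row NM_001164040 (-1.66, listed at 0) were lower in dF4, which is 3 of 8 rows beside 12.9% of all tested transcripts. For NM_001164040 the same limit of 3 reads is 2.69 RPKM in dF4, more than either wt level, so this difference was not detectable at this depth. No member was higher, beside 13.4%. Against wt replicate 2 alone the Ly6a difference was -0.996, just short of the size asked. The wt libraries are shared by both comparisons, and Ly6d was at -0.96 in dF1 and -1.73 in dF4, Ly6a at -1.49 and -1.23, Ly6e at -0.19 and -0.67 and Ly6c2 at 0.88 and -0.18. Compared with dF1 directly, dF4 was -0.77 for Ly6d, 0.26 for Ly6a, -1.06 for Ly6c2 and -0.49 for Ly6e.

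The dF4 library also differed in its cell type markers beside these values. Its pDC marker sum was far below the other libraries, with Cox6a2, Klk1 and Cd300c listed at 0, while Ly6d was still the 87th most abundant of all its transcripts. Its early B lineage sum was above the other libraries, and its early lymphoid progenitor sum over 11 markers was 178.5 RPKM, against 577.5 to 673.5 in the other libraries. Its monocyte sum over 10 markers was 1386 RPKM, against 116.1 to 213.2, of which Lyz2, a lysozyme gene that neutrophils also express, gave 1124.3. By the size rule 6 of the 10 were higher and 0 lower, while Ccr2 (63.8 RPKM) and Ly6c2 lay within the wt range. The sums for T (12 markers), mature B and plasma (10) and erythroid cells (10) were also higher than in the other libraries, at 845.5 against 249.1 to 445, 1244 against 504.9 to 661.6, and 932.9 against 135.6 to 217.7 RPKM. Of 8 conventional dendritic cell markers tested, 4 were lower and 3 higher by the size rule (median -0.99), and H2-Ab1 alone gave 920.6 of their summed 1000 RPKM. Of the cells known to carry Sca-1, the endothelial sum was 50.4 RPKM against 138.9 to 161. The stem and progenitor sum was 68.7 RPKM against 16.5 to 22.9, but its markers did not move together. Of the 7 that passed the filter, 5 were higher and 2 lower by the size rule. Gfi1b (15.6 RPKM), Tal1 (12.5) and Gata2 (9.3) were higher and passed the filter through dF4 alone. Kit (17.1) and Cd34 (7.7) were also higher, while Meis1 (1 RPKM) and Hoxa9 (listed at 0) were lower. The part of any of these cells in the dF4 values was not tested.

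In RefSeq's gene order on chromosome 15, from Psca to Ly6f, the cluster holds 23 protein-coding genes, of which 19 had a row in the table and 8 reached a mean of 1 RPKM. The 8 were Them6 (listed as 4930572J05Rik), Lynx1, Ly6d, Ly6k, Ly6e, Ly6i, Ly6a and Ly6c2. Genes listed at 0 and abundant genes both lie within it. Slurp2, Gml and Ly6f were listed at 0 in all libraries, and Ly6m (listed as 2010109I03Rik) was at 1.8 RPKM or below. Ly6c1 near 0 lies directly between Ly6a and Ly6c2 among the protein-coding genes. Ly6i was at 0.3 RPKM or below in the wt and dF1 libraries and 5.7 in dF4, about 3 reads.

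**Figure D4:**
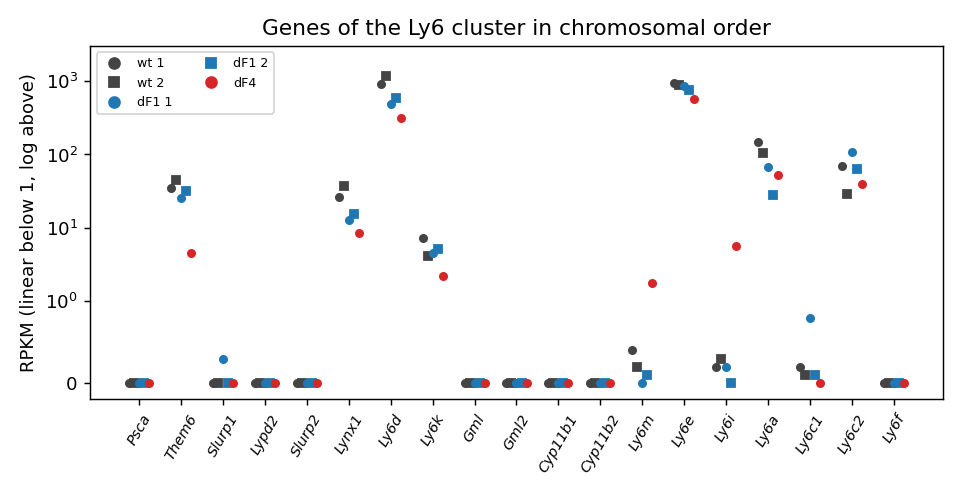
RPKM in each library for the 19 measured genes of the Ly6 cluster in chromosomal order, on an axis that is linear below 1 and logarithmic above. Them6, Lynx1 and Ly6d show the same order of libraries, at about 34.6, 26.1 and 913.1 RPKM in wt replicate 1.

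Lynx1, which encodes an LU protein that modulates nicotinic acetylcholine receptors and lies next to Ly6d, had the profile closest to that of Ly6d. Likeness was measured as the root mean square difference of log2(RPKM + 1) profiles over the 5 libraries, each centred on its own mean, among 7675 named genes with a mean of at least 5 RPKM. The value for Lynx1 was 0.0656, followed by 0.0765 for Tfrc, the transferrin receptor, and 0.0923 for Rtn4rl1. Lynx1 gave 26.1 and 37.1 RPKM (wt), 13 and 15.6 (dF1) and 8.5 (dF4), which is the same order of libraries as for Ly6d at a far lower level. Them6 of the same cluster had this order too, at 34.6 and 44.4 RPKM (wt), 25.2 and 32.3 (dF1) and 4.5 (dF4). The share of all transcripts with this order was not counted. The dF1 difference of Lynx1 was -1.08 (SE 0.21, limma adjusted p = 0.343). The next gene on the other side with a row, Ly6k, gave 7.4 and 4.1 RPKM (wt) against 4.5 and 5.1 (dF1), and its groups overlapped.

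The other members had other nearest profiles. For Ly6c2 they were Serpinb6b (0.163), Ccr2, the chemokine receptor of monocytes that other blood cells also carry (0.204), and Rps14 (0.214), a ribosomal protein gene with close copies. Ccr2 gave 121.4 and 46.6 RPKM (wt), 148.3 and 134.9 (dF1) and 63.8 (dF4), low in wt replicate 2 and dF4 as Ly6c2 was. For the main Ly6e row they were Tram1 (0.0283), Lypla1 (0.0303) and Unc50 (0.0367). For Ly6a the nearest were less close, at 0.316 for the troponin gene Tnni1, 0.412 for Klf11 and 0.453 for Inppl1.

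**Figure D5:**
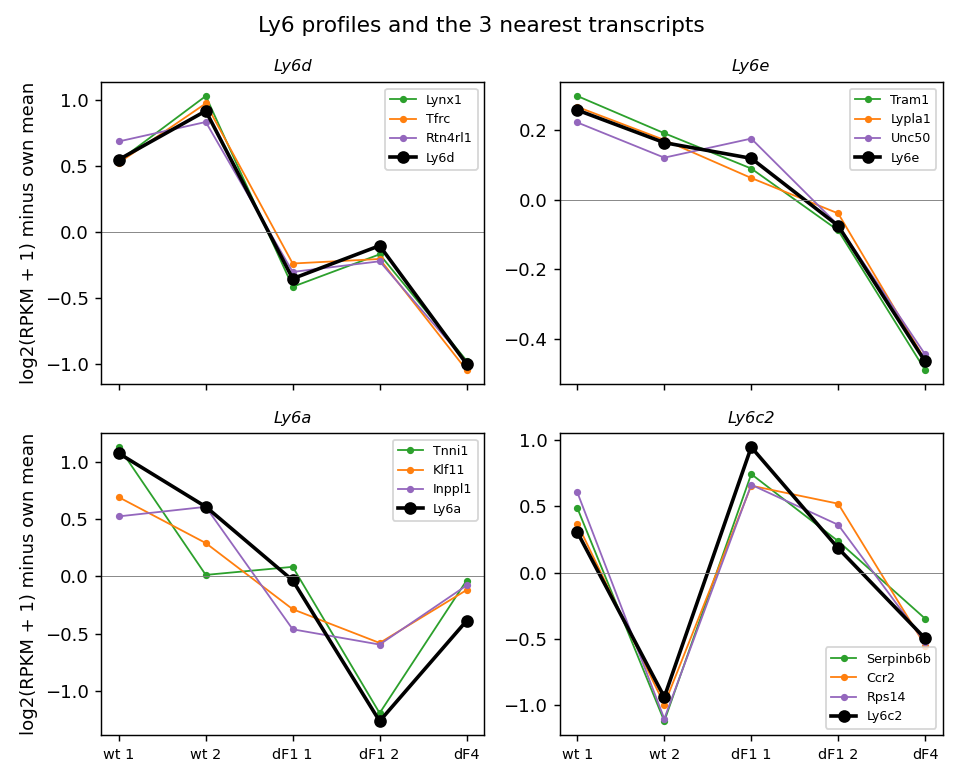
log2(RPKM + 1) minus its mean over the 5 libraries for Ly6d, Ly6e, Ly6a and Ly6c2 (black) and their 3 nearest genes (coloured). Lynx1 follows Ly6d within 0.0656 (root mean square), whereas the nearest gene to Ly6a is at 0.316, and the lines join libraries and imply no order.

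Beyond the members, 32 of 34 other LU domain genes had a row, and 17 of them were listed at 0 in every library. Of the 8 with a mean of at least 1 RPKM, 0 passed the adjustment, 5 had a negative dF1 difference (48.3% of all tested transcripts did), and the median was -0.14. Ly6i and Ly6g6f reached this mean through the dF4 library alone. Plaur, the urokinase receptor, gave 25.1 and 46.7 RPKM (wt), 37.2 and 27.2 (dF1) and 42.3 (dF4), with overlapping groups. Cd177, a neutrophil surface protein of this family, gave 5.6 and 12.7 RPKM (wt), 4 and 8.5 (dF1) and 309.2 (dF4), and the last is the library with the high neutrophil sum. Ly6g5b (0.9 to 2.8 RPKM in the other libraries) and 9030619P08Rik (4.1 to 7.9 RPKM) were listed at 0 in dF4. Cd59a and Cd59b, which encode inhibitors of complement lysis, were at 0.4 RPKM or below throughout.

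The machinery that attaches the GPI anchor had a row for all 29 genes listed, with a median difference near 0 between dF1 and wt. Of 29 genes of GPI anchor synthesis 27 were tested and 0 passed, 14 had a negative and 13 a positive difference, and the median was -0.000698, beside 0.00725 over all transcripts tested. Both dF1 libraries lay below wt for 3 of the 27 (17.9% of all transcripts tested) and above for 6 (16.9% of all). The sum over the 29 genes was 411.5 and 399.3 RPKM for wt, 405.4 and 435.7 for dF1 and 395.8 for dF4. Gpaa1, a subunit of the transamidase that attaches the anchor, gave 22.3 and 22.5 RPKM (wt) against 16.5 and 18.1 (dF1), with both dF1 libraries lower (difference -0.36, SE 0.12, adjusted p = 0.659). Piga, which starts the anchor's synthesis, gave 5.3 and 4.1 RPKM (wt) against 4.6 and 5 (dF1).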

How the data were processed

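The authors deposited RPKM per RefSeq transcript, with its length alongside, per the file headers. The build mm9 and the tools TopHat and bedtools appear, with no settings, in the submitters' processing notes. The libraries were made with Illumina TruSeq from mRNA-enriched RNA, per the labels' protocols. 1 line named no gene and was left out, and 0 sample columns were left unused. The dF1 and wt libraries were compared by limma 3.58.1 (R 4.3.3, eBayes with trend, two-sided) on log2(RPKM + 1), a scale that understates changes of low transcripts, over the 12213 of 26531 transcripts whose 5-library mean reached 1 RPKM, with Benjamini-Hochberg adjustment at 0.05. The fit was tested on simulated data. The step in low dF4 values was 1.675 RPM (82.2% of 2872 low values within 0.1 read of a whole read). Sequences come from RefSeq and GENCODE tables of GRCm38, and no coordinate was joined to the mm9 values.

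The members, lists and tests were chosen with earlier results of these data known. Named are the members, other LU domain genes with a mean of at least 1 RPKM, and the 3 nearest profiles among genes of at least 5 RPKM. Genes of the chromosomal cluster and some LU domain genes with lower means, such as Cd59a and Cd59b, are named too. The list markers named include leading ones and others picked for their values in these libraries, such as Cox6a2, Lyz2 and Mx2. Alternatives were other pseudocounts, filters, scalings and variance settings, summing transcripts by gene, a replicate block and leaving out each library.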

Additional observations from a re-analysis of the deposited data

How the results depend on the processing

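The dF1 differences of Ly6a, Ly6c2, Ly6d, the main Ly6e row and Lynx1 kept their sign under every alternative run, and none passed the threshold in any. The count of transcripts called was 0 in the main fit, 25 with a mean of at least 5 RPKM (13 higher and 12 lower of 8759) and 33 with robust variances (16 higher and 17 lower), none of them a Ly6 member, and 0 in every fit without 1 library. Without 1 library the differences ranged from -2.10 to -0.88 for Ly6a, 0.26 to 1.502 for Ly6c2, -1.15 to -0.78 for Ly6d and -0.29 to -0.09 for Ly6e, and in such fits the lone library is assumed to vary like the pair. Some low or variable rows changed sign. Without 1 library the values ranged from -1.43 to 0.17 for NM_001164037, -1.92 to 0.41 for NM_001164038, -0.99 to 0.062 for Cd177, -0.54 to 0.18 for Ly6k and -0.54 to 0.33 for Plaur (0.11 without dF1 replicate 2). The positive value arose without wt replicate 1 for Ly6k and without wt replicate 2 for the others. For dF4 minus wt, Ly6c2 was at 0.44 without wt replicate 1 and -0.80 without wt replicate 2. Ly6a ranged from -1.46 to -0.996, Ly6d from -1.92 to -1.55 and Ly6e from -0.72 to -0.63. The Ly6e value was -0.75 after median centring and -0.84 after quantile normalization, where the main value was -0.67 and the wt spread is small. The labels give wt and dF1 the same replicate numbers but no shared litter or day. Replicate 1 minus replicate 2 correlated at 0.305 across transcripts between the genotypes. With the replicate block 0 transcripts were called, and the adjusted p was 0.217 for Ly6a (-1.49) and 0.29 for Ly6d (-0.96) and Ly6c2 (0.88). The depth of the wt and dF1 libraries is unknown, and in dF4 about 19 reads of Ly6c2 and 26 of Ly6a limit what can be read from them.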
